A study of Mus musculus with 2 samples.

Results

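Mir101a and Mir101b, the mouse loci that encode the near-identical microRNAs miR-101a and miR-101b, are described here in the left cerebral cortex of young mice. They were chosen by their Ensembl gene identifiers in the GENCODE M21 annotation, by a rule that uses no measured value although earlier results of these data were known, and are 2 of the 2202 microRNA loci counted. The samples were left cerebral cortex of female B6CASTF1/J mice aged 14 days, which are first-generation hybrids between C57BL/6J and CAST mice, with no treatment and no engineered allele. There was 1 group of 2 biological replicates, from which RNA below 30 nt was sequenced. Both replicates carry the same donor record, the label of replicate 1 mentions several females and that of replicate 2 a single one. Whether replicate 1 pools animals is not given, so the spread between these libraries may be partly technical.

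MicroRNAs are short RNAs that guide Argonaute proteins to messenger RNAs, mainly through the seed, bases 2 to 8 counted from the 5′ end. The miR-101 family is known for repressing the histone methyltransferase Ezh2. In early postnatal mouse brain, blocking miR-101 for a short time is known to leave networks overexcitable later, and the chloride importer Slc12a2 (NKCC1) is among its known targets there.

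The mature sequences come first, because they show how little separates the loci. They are from RefSeq on GRCm38.p6, the same assembly as mm10, and capitals mark the seed.
miR-101a-3p: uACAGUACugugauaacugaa
miR-101b-3p: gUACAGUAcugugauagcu
miR-101a-5p: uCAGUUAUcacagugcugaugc
miR-101b-5p: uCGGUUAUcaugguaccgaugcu

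The 3p arms are the same run of letters read in different registers. Placed on the Mir101b hairpin, miR-101a-3p differs by 1 letter of 21, A16G, with positions counted from 1 at its 5′ end and its own base written first. Placed on the Mir101a hairpin, miR-101b-3p differs by 1 letter of 19, G17A. The annotated miR-101b-3p begins 1 base earlier, and the Mir101a hairpin has the same base, G, at that place. The annotated seeds therefore differ, ACAGUAC for miR-101a-3p and UACAGUA for miR-101b-3p, although both hairpins contain both. Of the 1679 mature mouse sequences in the RefSeq table, 1 has each of these seeds. The shared letters ACAGUA fall within the seed of 3 (0.179%), namely the pair and miR-144-3p.

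The 5p arms are less alike, with 5 differing letters over the 22 of miR-101a-5p (A3G, C11U, A12G, G15A and U17C on Mir101b). A3G lies in the seed, so the 5p seeds are CAGUUAU and CGGUUAU. Because the 3p arms are so close and the 5p arms are not, the whole hairpins are shown with the 3p arm in capitals.
Mir101a hairpin: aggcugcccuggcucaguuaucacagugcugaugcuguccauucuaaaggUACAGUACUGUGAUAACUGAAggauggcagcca
Mir101b hairpin: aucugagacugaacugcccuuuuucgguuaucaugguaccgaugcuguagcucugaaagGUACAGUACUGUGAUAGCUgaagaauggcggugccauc

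The hairpins share an identical stretch of 20 nt, aaagguacaguacugugaua, which runs from the loop into the 3p arm. Predicted minimum free energies were -47 kcal/mol for the 83 nt of Mir101a and -39.6 kcal/mol for the 97 nt of Mir101b. In these predicted folds 20 of 21 bases of miR-101a-3p and 18 of 19 bases of miR-101b-3p were paired.

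Mir101a (ENSMUSG00000065451.1) lies on the minus strand of chromosome 4, from 101346945 to 101347027 on mm10, in an exon of the long non-coding RNA E130102H24Rik. Mir101b (ENSMUSG00000065556.1) lies on the plus strand of chromosome 19, from 29135279 to 29135375, in an intron of the protein-coding gene Rcl1, known for its part in ribosomal RNA processing. No other of the counted microRNA loci was annotated within 1000 kb of either. The surroundings are related: Mir101a has the adenylate kinase gene Ak4 at 72.2 kb and the kinase gene Jak1 at 81.7 kb, and Mir101b has Ak3 at 87.3 kb and Jak2 at 116.5 kb.

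A further locus, Mir101c (ENSMUSG00000106183.1), is annotated on the minus strand of chromosome 9, from 3038669 to 3038743, with no host gene. Its mature sequence is shown because it repeats the 3p arm of Mir101a in yet another register, and miR-144-3p because it holds the shared letters ACAGUA.
miR-101c: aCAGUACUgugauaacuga
miR-144-3p: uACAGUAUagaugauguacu

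The 19 letters of miR-101c are identical to letters 2 to 20 of miR-101a-3p. Over its whole length miR-101a-3p differs from the Mir101c locus by U1C and A21U, and miR-101b-3p differs from it by U2C and G17A. A read that holds only letters inside the 19 nt stretch is the same at Mir101a and Mir101c, and one inside the 20 nt stretch is the same at Mir101a and Mir101b. Reads that mapped to several places stand outside all locus counts and made up 40.6% of the reads of replicate 1 and 37.9% of those of replicate 2. How many of them came from miR-101 was not tested, since the files do not give their sequences, so the counts may understate the mature microRNAs. The counts also join both arms of a hairpin, so the 3p and 5p arms cannot be told apart.

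Replicate 1 held 2740332 reads assigned to a microRNA locus and replicate 2 held 3207941, of 7745369 and 9627908 reads in all. Levels are CPM, reads scaled to a total of 1000000 assigned reads, with exact binomial 95% intervals that cover counting error only. A locus is called detected with at least 10 reads in each library, which held for 389 loci. Loci known from neurons summed to 33386 and 42518 CPM in replicates 1 and 2. Muscle loci summed to 28.8 and 31.2 CPM, and the liver locus Mir122 had 60.9 and 43.0 CPM. The muscle sum came from Mir206 alone, as Mir1a-1, Mir1a-2, Mir133a-1 and Mir133a-2 had 0 reads. Those are paired loci of miR-1a and miR-133a, and reads with several matches are not in the counts. The muscle sum therefore cannot show whether these microRNAs were absent. The defining neuronal loci of miR-124, which share their mature sequence, had at most 12 reads each.

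Both members were detected, Mir101b at the higher level in counted reads. Mir101a had 154 reads in replicate 1 and 426 in replicate 2, which are 56.2 CPM (interval 47.7 to 65.8) and 133 CPM (120 to 146). Mir101b had 529 reads in replicate 1 and 1038 in replicate 2, which are 193 CPM (177 to 210) and 324 CPM (304 to 344). Replicate 1 was the lower library at both loci, and the intervals of the libraries did not overlap at either. The means were 94.5 ± 54.2 CPM for Mir101a and 258 ± 92.3 CPM for Mir101b (SD, n = 2). The highest Mir101a value lay below the lowest Mir101b value.

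The column that ignores strand gave the same read numbers at both loci, and the opposite strand had 0 reads at each in both libraries. Mir101c had 0 reads in both libraries, so levels below 1.09 CPM (replicate 1) or 0.935 CPM (replicate 2), the limits set by 3 reads, would be missed. As all 19 letters of its annotated mature sequence also occur in Mir101a, this count does not show that the locus is silent.

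Mir144, which is known from red blood cells and whose 3p seed holds the shared letters ACAGUA, had 119 reads (43.4 CPM) in replicate 1 and 172 reads (53.6 CPM) in replicate 2. Its interval in replicate 1, 36.0 to 52.0 CPM, overlapped that of Mir101a, and in replicate 2, at 45.9 to 62.3 CPM, it did not. The intervals of Mir144 in the libraries overlapped each other. Mir451a, the locus beside Mir144 that is likewise known from red blood cells, had 908 CPM in replicate 1 and 510 CPM in replicate 2. The order of levels was thus Mir101b, Mir101a, Mir144 and Mir101c in both libraries, and the interval overlap in replicate 1 concerns Mir101a and Mir144 alone.

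**Figure D1:**
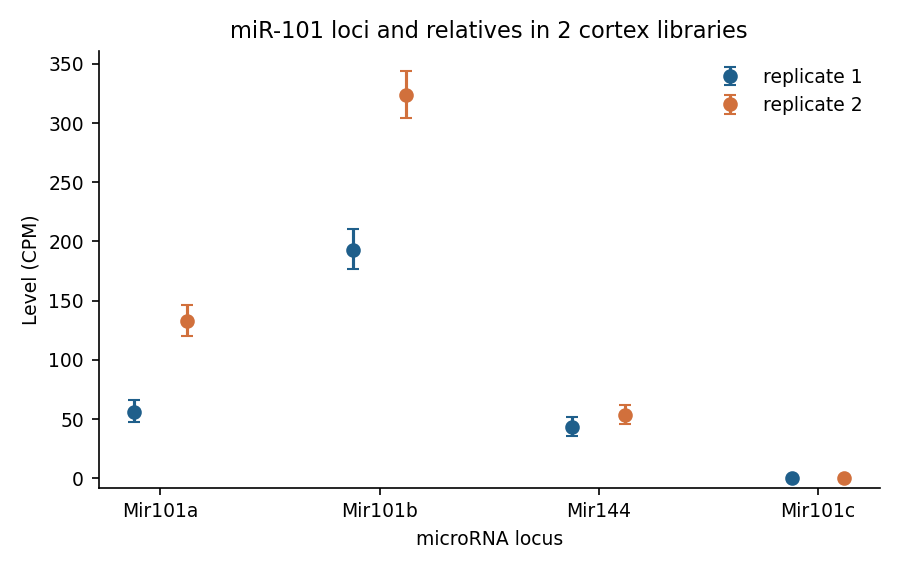
Level in CPM of Mir101a, Mir101b, Mir144 and Mir101c in replicate 1 (left point of each pair) and replicate 2 (right point), with exact binomial 95% intervals as bars. Mir101a sits at 56.2 and 133 CPM and Mir101b at 193 and 324 CPM, while Mir144 moves little and Mir101c is at 0.

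The pair lay in the middle of the range of detected loci. By mean level Mir101b was at place 164 and Mir101a at place 212 of 389, and the median detected locus had 149 CPM. Together the loci took 0.0249% of assigned reads in replicate 1 (249 CPM) and 0.0456% in replicate 2 (456 CPM), a mean of 0.0353 ± 0.0146% (SD, n = 2).

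The loci nearest to Mir101a by mean level were Mir155, known from activated immune cells, Mir148a and the locus named Snord43 above it, and Mir210, known from hypoxia, Mir1193 and Mir16-2 below it. Their means ran from 102 CPM for Mir155 to 90.3 CPM for Mir16-2, all closer to Mir101a than its own SD of 54.2 CPM. Within the libraries the order turned round for all 6: Mir148a lay below Mir101a in replicate 1 and above it in replicate 2, and the other loci lay above it in replicate 1 and below it in replicate 2. The loci nearest to Mir101b were Mir188, Mir125b-2 and Mir6540 above it, and Mir1843a, Mir193b and Mir505 below it. These ran from 302 CPM for Mir188 to 253 CPM for Mir505, again closer than the SD of Mir101b. Mir188, Mir125b-2 and Mir6540 lay above Mir101b in both libraries, Mir6540 by 325 against 324 CPM in replicate 2. Mir1843a, Mir193b and Mir505 lay above it in replicate 1 and below it in replicate 2, so their order relative to Mir101b was not resolved.

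**Figure D2:**
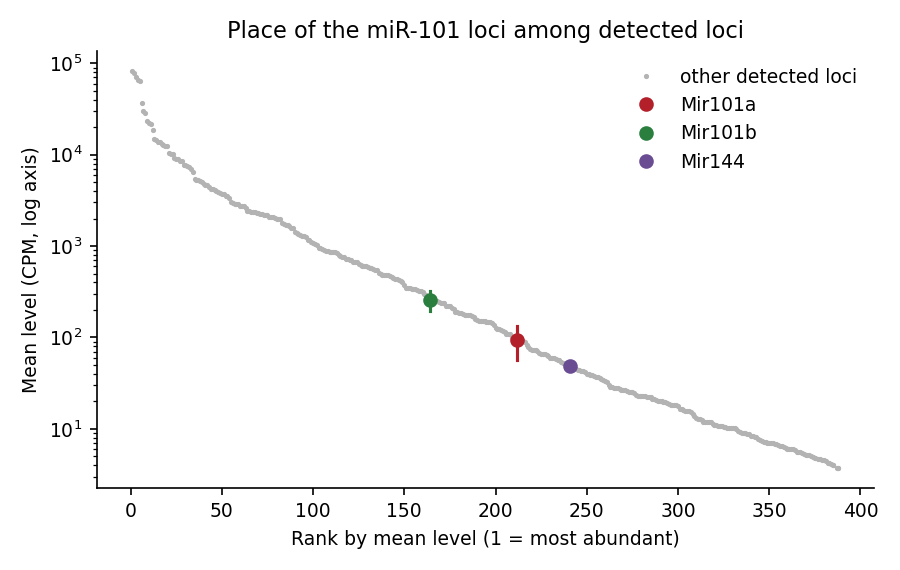
Mean CPM (log axis) of the 389 detected loci against their rank, with 1 the most abundant. Mir101b (place 164), Mir101a (place 212) and Mir144 (place 241) are coloured, and vertical lines join their values in the libraries.

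The pair was next set beside 14 loci of microRNAs known for effects on neuronal excitability or for regulation by activity, all of which were detected. These loci were mostly far more abundant. Mir101b had 13 of the 14 above it in either library, and Mir101a had 14 above it in replicate 1 and 13 in replicate 2. The median of the list was 2373 CPM in replicate 1 and 3032 CPM in replicate 2. Mir184 was the only locus of the list below Mir101b, with 74.4 CPM in replicate 1 and 74.5 CPM in replicate 2.

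Mir139 led this list at 83247 ± 21345 CPM (SD, n = 2). Next came Mir128-1 at 10267 ± 6918 CPM, Mir324 at 10050 ± 1411 CPM and the activity-regulated Mir132 at 9108 ± 961 CPM. Mir128-1 encodes miR-128, a microRNA known for restraining motor activity and seizures in mice. Mir128-1 exceeded the summed pair 21.6-fold in replicate 1 and 33.2-fold in replicate 2. The order is one of counted reads: Mir128-1 has a relative with the same mature sequence, and its count, like those of the pair, leaves out reads that mapped to several places.

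**Figure D3:**
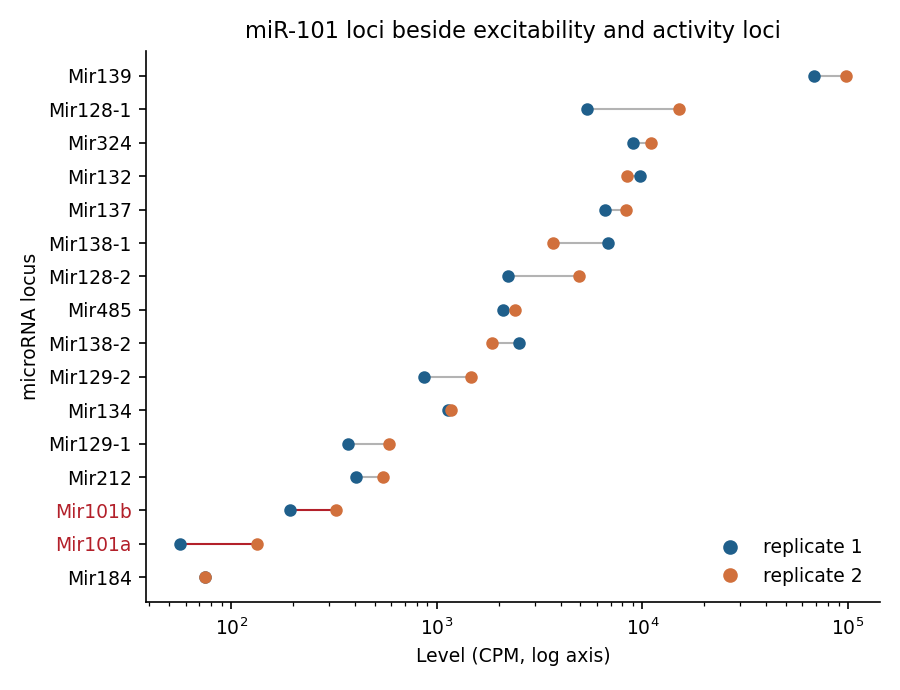
Level in CPM (log axis) of Mir101a and Mir101b (red names) and of the 14 excitability and activity loci in replicate 1 (blue) and replicate 2 (orange), ordered by mean. Mir101a and Mir101b lie at the low end, with Mir184 as the only neighbour below.

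The 10 loci of other microRNAs reported to repress Ezh2, mostly from work on human cells, also spanned a wide range of levels. Of these 6 were detected, led by Mir137 at 7452 ± 1255 CPM, Mir138-1 at 5222 ± 2216 CPM, Mir26b at 4673 ± 2273 CPM and Mir138-2 at 2188 ± 470 CPM (SD, n = 2). Both miR-101 loci were below these 4. Mir214 had 27.7 CPM in replicate 1 and 86.3 CPM in replicate 2, and Mir26a-2 had 11.3 and 19.3 CPM. Both loci were below either member in each library. The undetected loci were Mir26a-1 and those of miR-124. Mir26a-1 and Mir26a-2 are both loci of miR-26a, and reads with several matches are absent from these counts. Their low counts, like those of the miR-124 loci, thus do not show that the mature microRNA is scarce.

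The libraries were then compared locus by locus, to see how firmly the levels of the pair are known. Reads were scaled by the trimmed mean of M values (TMM), and ratios are replicate 1 over replicate 2. Both members were lower in replicate 1. Mir101a had a log2 ratio of -1.07 (exact binomial 95% interval -1.34 to -0.80), a level 2.10-fold higher in replicate 2. Mir101b had a log2 ratio of -0.57 (-0.73 to -0.42), or 1.49-fold higher in replicate 2. A two-sided exact binomial test, adjusted by the Benjamini-Hochberg method across the 389 detected loci, gave an adjusted p of 5.48e-16 for Mir101a and 1.49e-13 for Mir101b.

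These tests compare the reads of these libraries, not conditions, and cover counting error only. Of all detected loci 58.4% passed the same test, 28.8% as lower and 29.6% as higher in replicate 1, so the calls of both members stand against a background where most loci are called. The SD of the log2 ratio over detected loci was 0.70 and the median was 0.0098. A ratio at least as large in either direction as that of Mir101a was found at 37 loci (9.51%), the member itself included, and for Mir101b at 131 loci (33.7%). The coefficient of variation between replicates from edgeR's common dispersion was 0.317. Scaling by library totals alone moved the median of all loci to -0.16 and the ratios to -1.24 for Mir101a and -0.75 for Mir101b.

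The detected loci with a ratio nearest to that of Mir101a were Mir92-1 (-1.03), Mir380 of the imprinted Dlk1-Dio3 region (-1.11) and Mir874 (-1.01), among loci with a mean of at least 100 reads. Nearest to Mir101b were Mir539 and Mir543, also of that region, and Mir129-2, each at -0.59. The likeness is one of a single ratio over 2 libraries. Mir144 differed by only -0.13 on the log2 scale, short of the threshold (adjusted p = 0.577 in the same exact binomial test).

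**Figure D4:**
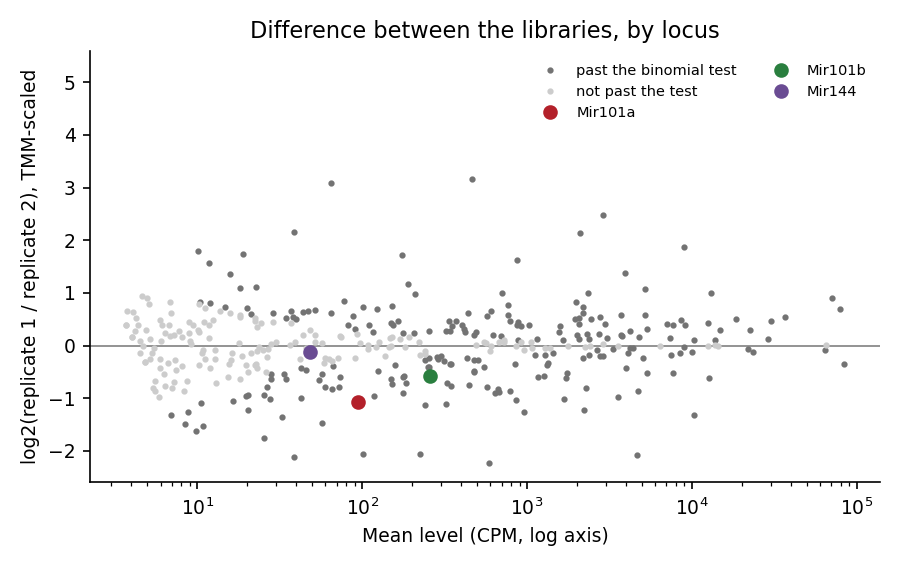
TMM-scaled log2 ratio of replicate 1 over replicate 2 for each detected locus against its mean CPM (log axis). Dark points passed the exact binomial test, and Mir101a (-1.07) and Mir101b (-0.57) lie below 0, within the cloud of other loci.

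The excitability and activity loci held both directions. Of the 14 loci 8 were lower and 4 higher in replicate 1 past the test, beside 28.8% lower and 29.6% higher among all detected loci. The test is passed more readily at higher counts, and this background was not matched in level. Medians were 2373 and 3032 CPM for the list in replicates 1 and 2, beside a median mean level of 149 CPM over all detected loci. The median log2 ratio of the list was -0.14, beside 0.0098 over all detected loci. Mir128-1 (-1.32) and Mir128-2 (-0.97) were lower in replicate 1, and Mir138-1 (1.07) and Mir138-2 (0.61) were higher. Of the 6 detected Ezh2-related loci 3 were lower and 2 higher past the same test, with a median of -0.39, beside the same background. Mir26b (-0.86) and Mir214 (-1.47) were lower in replicate 1.

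Markers of other cell types were counted in the same way. Their calls are to be read against the 58.4% of all detected loci that passed the test (28.8% lower and 29.6% higher in replicate 1). Sums are CPM scaled to library totals, while calls use TMM-scaled ratios, so their directions can differ. The oligodendrocyte loci together had 4275 CPM in replicate 1, against 1477 CPM in replicate 2, with 2 of 3 higher in replicate 1 past the test. The endothelial and mural loci summed to 21215 and 13606 CPM, with 2 higher and 1 lower. The choroid plexus loci Mir204 and Mir448 together had 462 CPM in replicate 1, against 941 CPM in replicate 2, and both were lower in replicate 1. Microglial and leukocyte loci summed to 1563 and 1888 CPM in replicates 1 and 2, with 2 higher, 1 lower and Mir223 at 3 and 45 reads. The erythroid loci together had 976 CPM in replicate 1, against 585 CPM in replicate 2, with 1 of 3 higher in replicate 1. Their part in the lower miR-101 levels of replicate 1 was not tested, and in bulk tissue fewer cells of a type and less RNA per cell cannot be told apart.

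Within a library, the ratio of the members needs no scaling. Mir101a supplied 22.5% of the pair's reads in replicate 1 (exact binomial 95% interval 19.5% to 25.9%) and 29.1% in replicate 2 (26.8% to 31.5%). Mir101b was thus 3.44-fold above Mir101a in replicate 1 and 2.44-fold in replicate 2, and the mean log2 ratio of Mir101a over Mir101b was -1.53 ± 0.35 (SD, n = 2). Mir101b was the larger contributor in both libraries.

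The ratio shifted between the libraries by -0.50 log2 units, replicate 1 minus replicate 2. By a two-sided Fisher's exact test on the 4 read counts the odds ratio was 0.709 (95% interval 0.570 to 0.881, p = 0.00145). This p again covers counting error only, so it shows that these libraries differ and not that the balance of the pair varies between animals.

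A set of 18 paralog pairs, counting this one, was used to judge the size of that shift, and 16 pairs had both loci detected. The absolute shift of the log2 ratio had a median of 0.39 and ran from 0.010 for Mir23a over Mir23b to 2.06 for Mir34b over Mir34c. Read depth was not matched across the pairs. Mir34b had 15 and 25 reads in replicates 1 and 2, and Mir10a had 16 and 29, so their shifts carry much counting error. Mir221 over Mir222 shifted by 1.41 with 1206 to 8204 reads per locus and library. The shift of Mir101a over Mir101b was larger than that of 9 pairs and smaller than that of 6. Its imbalance was also within their range, with 10 of the other pairs more uneven on average.

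Mir27a over Mir27b and Mir23a over Mir23b, whose hairpins likewise share 20 nt, had mean log2 ratios of -3.59 ± 0.31 and -1.16 ± 0.0072 (SD, n = 2). Mir30a over Mir30d, with 14 identical nt, stood at -1.57 ± 0.021, close to the -1.53 ± 0.35 of the miR-101 pair but with a far smaller spread. Mir148a over Mir148b changed sign, at -0.61 in replicate 1 and 0.85 in replicate 2, which the miR-101 pair did not. Of all detected loci 82 (21.1%) share an identical stretch of at least 20 nt with another microRNA locus, both members included.

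**Figure D5:**
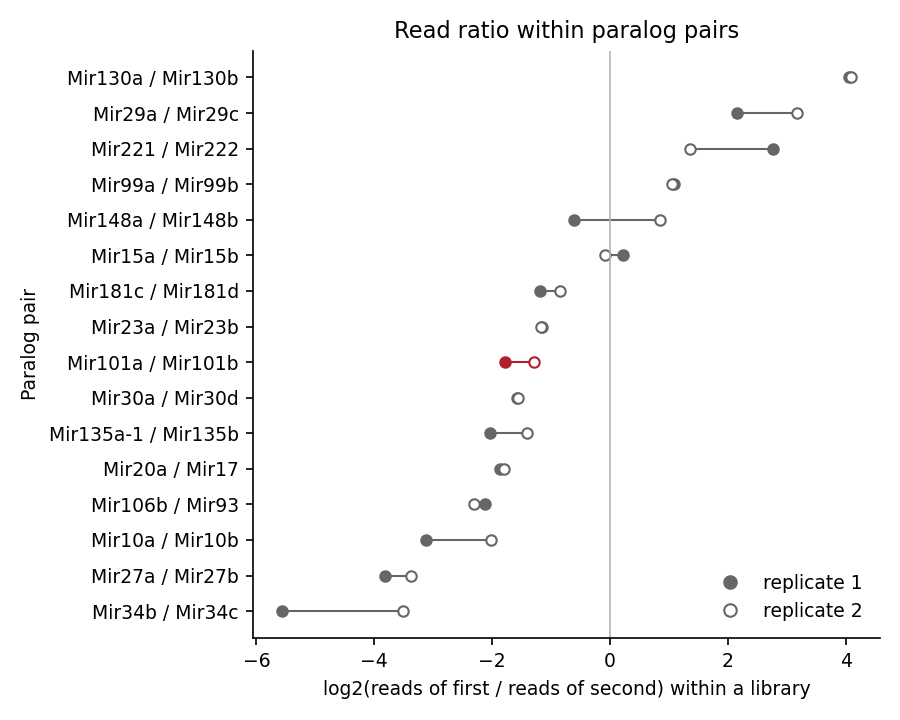
Log2 ratio of the reads of the first over the second locus of 16 paralog pairs, in replicate 1 (filled) and replicate 2 (open), ordered by mean. Mir101a over Mir101b (red) lies at -1.78 in replicate 1 and -1.28 in replicate 2, on the same side of 0 in both.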

How the data were processed

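For each library the authors deposited whole-number read counts by microRNA locus, made on mouse build mm10 with GENCODE M21, per the file list deposited with them; the tools for trimming, alignment and counting were not given in the sources used. Of 3 unnamed count columns, the third column of the file, which from its values counts reads on the RNA strand, was used. Rows that name no locus (unmapped 18.1% and 22.8%, several places 40.6% and 37.9%, no microRNA locus 5.93% and 6.03%, ambiguous 0% in replicates 1 and 2) were left out of library sizes. The members and lists were chosen with earlier results of these data known. Loci named are the members, Mir101c, the 3 nearest loci above and below by mean CPM, the 3 nearest by replicate ratio with at least 100 reads, seed relatives, and up to 4 loci of each list; others appear where a contrast needed them and were picked after their values were seen. TMM factors and the dispersion came from edgeR 4.0.16 (intercept only) and size factors from DESeq2 1.42.0. Exact binomial and Fisher tests came from scipy 1.17.1, with a threshold of 0.05, and folds from RNAfold 2.7.2. The binomial procedure was tested on counts simulated with counting error only, so that check does not cover spread between replicates. Symbols and places came from GENCODE M21, sequences from RefSeq (GRCm38.p6). CAST alleles that differ from the mm10 sequence were not examined. Alternatives were the column without strand, minima of 5, 50 or no reads, added pseudocounts of 1 or 5 CPM, DESeq2 size factors, TMM or library totals, and each replicate left out.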

Additional observations from a re-analysis of the deposited data

How the results depend on the processing

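Of 56 values recomputed under an alternative, 53 kept their direction and their side of the threshold, or stayed within the spread. The exceptions were places among detected loci: in the column without strand Mir101a stood at place 193 and Mir101b at 150, where 365 loci were tested. With 1 library left out, Mir101a stood at places 199 to 224 and Mir101b at 163 to 175, the last without replicate 2. Their levels then ran from 56.2 to 133 CPM for Mir101a and from 193 to 324 CPM for Mir101b, and the log2 ratio of Mir101a over Mir101b from -1.78 to -1.28. Some of the 53 were fixed in advance. With 2 libraries, each lies within the SD of their mean. Leaving 1 out thus could not take a level, the share or the pair's ratio outside the spread. The column without strand held the same reads at both loci, so the pair's ratio and its Fisher test could not change there. The replicate ratio lay between -1.24 and -1.06 for Mir101a (adjusted p from 2.28e-21 to 9.2e-16, exact binomial test) and between -0.75 and -0.57 for Mir101b (1.9e-22 to 3.11e-13). Past the test were 211 to 240 loci under the alternatives, against 227; scaling by library totals moved the split to 77 higher and 159 lower in replicate 1, against 115 and 112. The coefficient of variation lay between 0.305 and 0.338; its alternatives were chosen after seeing the data. A replicate left out leaves no ratio between replicates. No paired analysis was possible because there is 1 group. With 154 reads at the thinnest point, counting error alone spans 47.7 to 65.8 CPM.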
